A study of Mus musculus with 3 samples.

Results

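Foxp3-positive T cells were picked out of single-cell RNA profiles of mouse inguinal fat, a subcutaneous depot. The cells profiled were those left when the fat cells are set aside, namely stromal, vascular and immune cells. The members were chosen by measured UMIs. A barcode, the tag of 1 droplet, entered with at least 500 genes detected and at most 15% of its unique molecular identifiers (UMIs, each standing for 1 captured RNA molecule) from mitochondrial genes. It also needed at least 1 Foxp3 UMI, at least 1 UMI summed over Cd3d, Cd3e and Cd3g, which encode the CD3 chains of the T cell receptor complex, and 0 UMIs of Cd79a (B cells) and Cd8b1 (CD8 T cells). The rule found 136 cells among 8186 barcodes that passed the filter on genes and mitochondrial UMIs. Foxp3, the CD3 genes, Cd79a and Cd8b1 are therefore given as descriptions only. The mitochondrial genes took part in the choice through their summed share.

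The study held 3 libraries, each of 1 genotype: Pdgfra-Cre; TERT fl/fl (here Pdgfra-Cre), Pdgfrb-Cre; TERT fl/fl (Pdgfrb-Cre) and TERT +/+ (wild type). In the first pair, Cre recombinase under a platelet-derived growth factor receptor promoter acts on a floxed allele of Tert, the gene of the catalytic subunit of telomerase. Both promoters are known for activity in mesenchymal and perivascular cells rather than in T cells. The wild-type library is also titled PBS, with no meaning stated for it, and no label gives the age, the sex or the number of the mice. With 1 library per genotype, genotype and library cannot be told apart, and every difference between them is a difference between libraries. Tert itself had 0 UMIs in the Foxp3-positive cells of each library, so it could not serve to check the genotypes in these cells.

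Regulatory T cells are CD4 T cells that hold other immune cells in check, and the transcription factor Foxp3 defines them and maintains their program. They capture interleukin-2 through the high-affinity receptor chain Il2ra, block costimulation through Ctla4, and release inhibitory cytokines such as interleukin-10. In adipose tissue they are known for an effector form that carries the interleukin-33 receptor Il1rl1, the lectin-like receptor Klrg1 and the growth factor Areg, whereas regulatory T cells of lymphoid organs keep homing receptors such as Ccr7.

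The Foxp3-positive cells numbered 3 in the Pdgfra-Cre library (of 1425 barcodes that passed), 79 in the Pdgfrb-Cre library (of 4033) and 54 in the wild-type library (of 2728). They held 21482, 653547 and 313671 UMIs in the same order of libraries, with medians of 4255, 4918 and 4316 UMIs per cell. Single cells ranged from 2805 to 14422 UMIs in the Pdgfra-Cre library, from 1368 to 49305 in the Pdgfrb-Cre library and from 902 to 37961 in the wild-type library. The 5 deepest cells held 30.3% of all UMIs of the Pdgfrb-Cre set and 31.8% of those of the wild-type set, so summed levels lean on few cells. In the Pdgfra-Cre set 1 UMI corresponds to 46.6 CPM (UMIs of a gene per 1000000 UMIs of the set), and a gene at 0 there says little. Foxp3-positive cells were set against conventional CD4 T cells of the same libraries, which had at least 1 CD3 UMI, at least 1 Cd4 UMI and none of Foxp3, Cd79a, Cd8a, Cd8b1 or Trdc. These numbered 26, 235 and 136 cells, with medians of 4993, 5234 and 5422 UMIs. The libraries shared 9 cell barcodes, of which 0 belonged to a Foxp3-positive cell, and 1 of the 206 barcodes with the highest doublet scores was a Foxp3-positive cell.

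In all, 173 deposited barcodes carried a Foxp3 UMI. Of these, 7 had too few genes, 5 had too many mitochondrial UMIs, 7 had no CD3 UMI, 4 had a Cd79a UMI and 14 had a Cd8b1 UMI. The gene Foxp3 lies at chrX:7573644-7595245, plus strand, in GRCm38 (mm10; GENCODE M21). Its level, which chose the cells, was 186 CPM (4 UMIs) in the Pdgfra-Cre set, 233 CPM (152 UMIs) in the Pdgfrb-Cre set and 287 CPM (90 UMIs) in the wild-type set. Most cells lay just inside the threshold: 76 had 1 Foxp3 UMI and 60 had more. Just outside it, the conventional cells had 0 Foxp3 UMIs by definition, and among B cells 1 of 998 barcodes of the Pdgfrb-Cre library, 0 of 766 of the wild-type library and 0 of 45 of the Pdgfra-Cre library carried one. Cells with 1 Foxp3 UMI carried Ikzf2 in 61.5% of cells in the Pdgfrb-Cre set, against 85.0% of cells with more. In the wild-type set the same shares were 82.9% and 100%. The cells with 1 Foxp3 UMI were also shallower, with median UMIs of 4032 against 5513 in the Pdgfrb-Cre set and 3932 against 4853 in the wild-type set. By level, Ikzf2 was at 584 CPM in the Pdgfrb-Cre cells with 1 Foxp3 UMI against 648 CPM in those with more, and at 1440 against 1279 CPM in the wild-type cells. A Cd4 UMI was seen in 65 of the 136 cells, Cd8a in 2 and Trdc in 2.

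The other regulatory T cell markers fixed for these cells bore out the label for most of them. Ikzf2 (the transcription factor Helios, chr1:69531214-69687245, minus strand), Ctla4 (chr1:60887000-60915832, plus strand) and Il2ra (chr2:11642807-11693193, plus strand) were all seen in 52 of the 136 cells, 60 cells had 2 of the 3, 19 had 1 and 5 had none. Of the 5 cells without any, the 3 wild-type cells were shallow, with 1040, 1236 and 1314 UMIs, and the 2 Pdgfrb-Cre cells had 2301 and 13990 UMIs. The cell with 2301 UMIs carried 130 UMIs of S100a8 and 164 of S100a9, which are neutrophil genes. It had no Trac or Cd4 UMI, so its label is uncertain. Among conventional CD4 T cells all 3 genes were seen together in 0 of 26 cells in the Pdgfra-Cre library, 11 of 235 in the Pdgfrb-Cre library and 4 of 136 in the wild-type library. Ikzf2 was at 559, 624 and 1358 CPM in the Foxp3-positive cells of the Pdgfra-Cre, Pdgfrb-Cre and wild-type libraries, against 75.7, 156 and 136 CPM in the conventional cells of the same libraries. Ctla4 was at 791, 1198 and 909 CPM in Foxp3-positive cells and at 174, 435 and 118 CPM in conventional cells. Il2ra was at 559, 161 and 427 CPM in Foxp3-positive cells and at 0, 30.2 and 35.7 CPM in conventional cells. For each of the 3 genes the lowest Foxp3-positive library lay above the highest conventional one. In B cells, which should lack them, Ikzf2 was seen in 2.22%, 0.601% and 0.783% of cells, Ctla4 in 24.4%, 2.81% and 1.04%, and Il2ra in 6.67%, 0.10% and 1.17%. In Foxp3-positive cells of the Pdgfrb-Cre and wild-type libraries the shares were 73.4% and 88.9% for Ikzf2, 92.4% and 87.0% for Ctla4, and 45.6% and 46.3% for Il2ra. The 3 Pdgfra-Cre cells carried Ikzf2 and Ctla4 in 3 cells and Il2ra in 2.

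Promoters are shown for the gene that defines these cells and for 2 receptors whose RNA was higher in them, so that the regulatory sequence stands beside the values. Each is the 250 bases before 1 of the gene's start sites in RefSeq, build GRCm38.p6, written 5′ to 3′ in lower case. Capitals mark the forkhead core letters GTAAACA, searched on both strands with TGTTTAC as the reverse complement.
Foxp3, chrX:7579426-7579675, plus strand: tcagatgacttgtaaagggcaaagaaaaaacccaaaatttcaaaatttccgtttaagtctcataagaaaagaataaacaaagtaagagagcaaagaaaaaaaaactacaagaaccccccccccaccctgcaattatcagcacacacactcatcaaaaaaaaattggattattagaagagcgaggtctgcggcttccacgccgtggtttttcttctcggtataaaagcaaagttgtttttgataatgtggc
Il2ra, chr2:11642542-11642791, plus strand: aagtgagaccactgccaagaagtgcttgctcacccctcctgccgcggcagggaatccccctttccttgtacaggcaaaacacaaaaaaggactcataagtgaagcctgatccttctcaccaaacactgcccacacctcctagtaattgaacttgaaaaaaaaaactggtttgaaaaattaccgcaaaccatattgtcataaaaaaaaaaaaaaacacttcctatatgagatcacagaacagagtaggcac
Il1rl1, chr1:40439379-40439628, plus strand: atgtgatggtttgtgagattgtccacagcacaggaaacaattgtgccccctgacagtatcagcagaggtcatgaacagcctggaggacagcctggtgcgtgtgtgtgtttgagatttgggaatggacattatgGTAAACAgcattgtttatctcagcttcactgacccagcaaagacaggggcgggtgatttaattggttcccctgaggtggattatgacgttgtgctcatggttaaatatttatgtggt
The Foxp3 and Il2ra windows held neither these letters nor the Runx core TGTGGTT (reverse complement AACCACA), and the Il1rl1 window shown held the forkhead letters at 1 place. A second RefSeq window of Il1rl1, at chr1:40429320-40429569, held neither, and the same was true of a second Foxp3 window, at chrX:7580233-7580482. Of 32851 such windows of all genes, 3.17% held the forkhead letters and 4.40% the Runx letters. Of 99 windows of the genes higher in Foxp3-positive than in conventional cells, 2 held the forkhead letters (2.02%) and 5 the Runx letters (5.05%). Of 127 windows of the genes lower in Foxp3-positive cells, 3 held each (2.36%). A match of letters describes the window and is no evidence of binding.

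The comparison of the 2 classes asked which genes set Foxp3-positive cells apart from conventional CD4 T cells of the same fat pad. Across 7151 genes tested, 110 were higher and 109 were lower in Foxp3-positive cells (edgeR's quasi-likelihood test on sums per library and class, library as a block, Benjamini-Hochberg adjusted p under 0.05), which is 1.54% and 1.52% of the genes tested. Leaving aside genes used to choose either class, these were 109 and 108 genes, of which 85 and 68 had the same direction in every library. In the 3 Pdgfra-Cre cells 0 UMIs counted as lower, and 1 UMI could suffice for higher. The 3 libraries are of different genotypes, so the test asks for a difference that holds across them. It leaned on the wild-type library: without it 9 genes were higher and 3 lower, without the Pdgfrb-Cre library 44 and 47, and without the Pdgfra-Cre library 71 and 59. With DESeq2 in place of edgeR, 23 genes were higher and 12 lower, and without the library term 2 and 0.

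**Figure D1:**
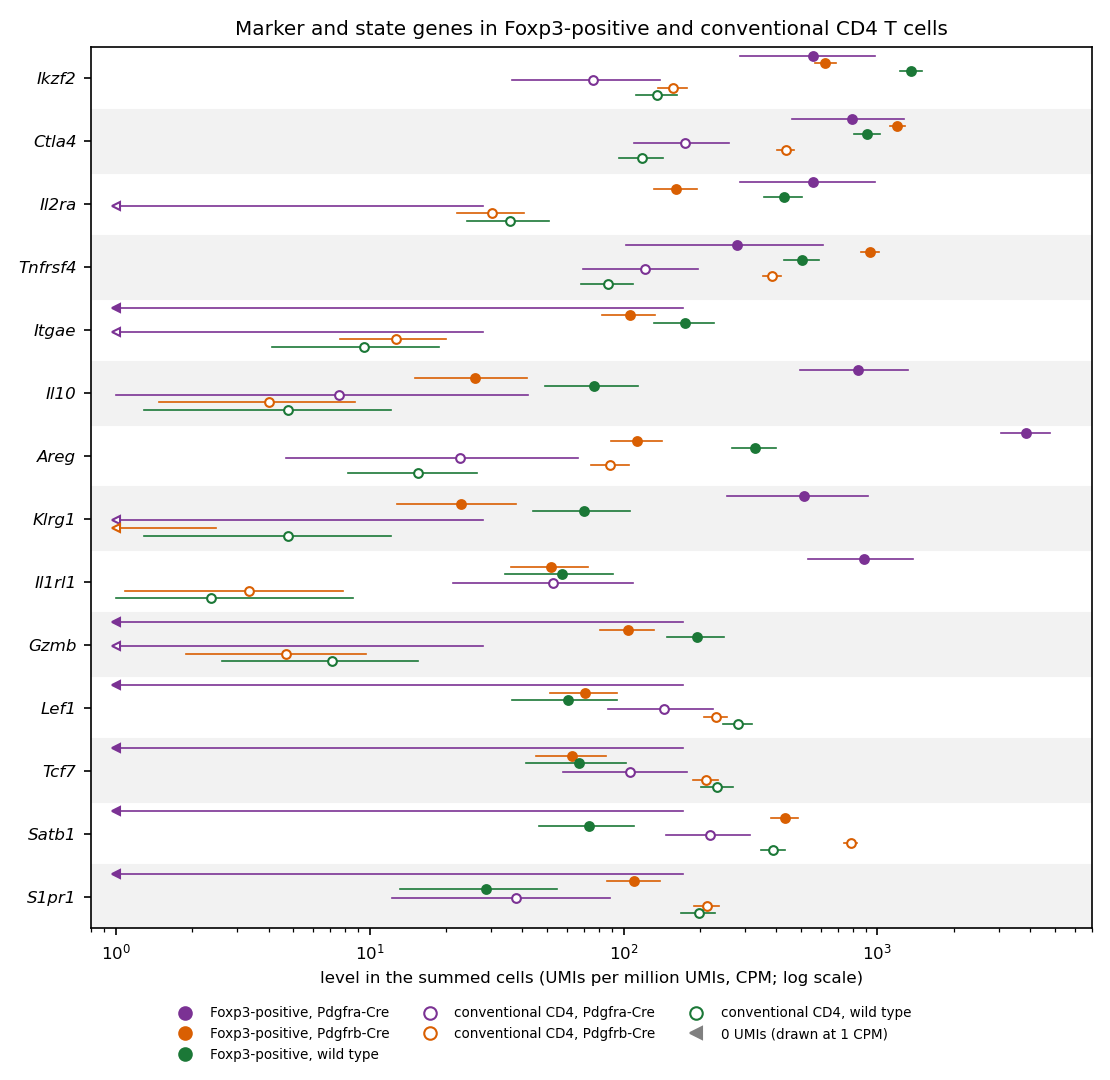
Level of 14 marker and state genes, as CPM of the summed cells on a log axis, in Foxp3-positive cells (filled) and conventional CD4 T cells (open) of the 3 libraries. Bars are exact 95% Poisson intervals, which cover counting error only, and triangles mark 0 UMIs. Ikzf2, Ctla4, Il2ra and Klrg1 lie to the right in Foxp3-positive cells, and Lef1 and Tcf7 to the left.

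Genes of regulatory T cell identity were higher in Foxp3-positive cells. Of 23 members tested besides Foxp3, 10 were higher, 0 were lower, and the median log2 fold change was 1.26, against -0.09 over all genes tested. The list was drawn up from known regulatory T cell genes with earlier results of these data in view. Il2ra, the high-affinity chain of the interleukin-2 receptor, had the clearest difference of the 3 markers (log2 fold change 3.02, SE 0.35, adjusted p = 8.0e-15 in edgeR). Ikzf2 differed by 2.39 (SE 0.38, adjusted p = 1.4e-07) and Ctla4 by 1.85 (SE 0.38, adjusted p = 1.4e-04). Without the wild-type library the Ikzf2 call was lost (log2 fold change 2.04, adjusted p = 0.229), while the Il2ra call held (3.15, adjusted p = 0.0012) as the 1 identity gene of 20 tested.

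Receptors of the tumour necrosis factor family, which give costimulatory signals to T cells, were also higher. Tnfrsf4 (OX40) was at 279, 938 and 504 CPM in the Foxp3-positive cells of the Pdgfra-Cre, Pdgfrb-Cre and wild-type libraries, against 121, 384 and 86.9 CPM in conventional cells (log2 fold change 1.47). Tnfrsf18 (GITR) was at 372, 275 and 405 CPM in Foxp3-positive cells, against 129, 136 and 91.6 CPM in conventional cells (1.26). Tnfrsf9 was at 46.6, 159 and 76.5 CPM in Foxp3-positive cells, against 0, 36.9 and 11.9 CPM in conventional cells (2.15). In each library all 3 receptors were higher in Foxp3-positive cells, though the Pdgfra-Cre value of Tnfrsf9 was a single UMI (1 UMI is 46.6 CPM there).

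The integrin chain Itgae (CD103), which binds E-cadherin, was at 0, 106 and 175 CPM in Foxp3-positive cells, against 0, 12.8 and 9.52 CPM in conventional cells (log2 fold change 3.31, SE 0.44, adjusted p = 4.2e-11 in edgeR). It was seen in 32 of 79 Foxp3-positive cells of the Pdgfrb-Cre library and 22 of 54 of the wild-type library, against 13 of 235 and 2 of 136 conventional cells. The transcription factor Ikzf4 (Eos), the actin-capping protein Capg and Lrrc32 (GARP), which holds latent TGF-beta on the cell surface, completed the 10 genes. Lrrc32 was at 0, 68.9 and 6.38 CPM in Foxp3-positive cells, against 0, 8.73 and 2.38 CPM in conventional cells, with 25 of the 27 Foxp3-positive cells that carried it in the Pdgfrb-Cre library. Nrp1 (0.90, adjusted p = 0.34), Izumo1r (0.89, adjusted p = 0.17) and Icos (0.75, adjusted p = 0.45) did not pass the test in edgeR. Tigit had too few UMIs to be tested.

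**Figure D2:**
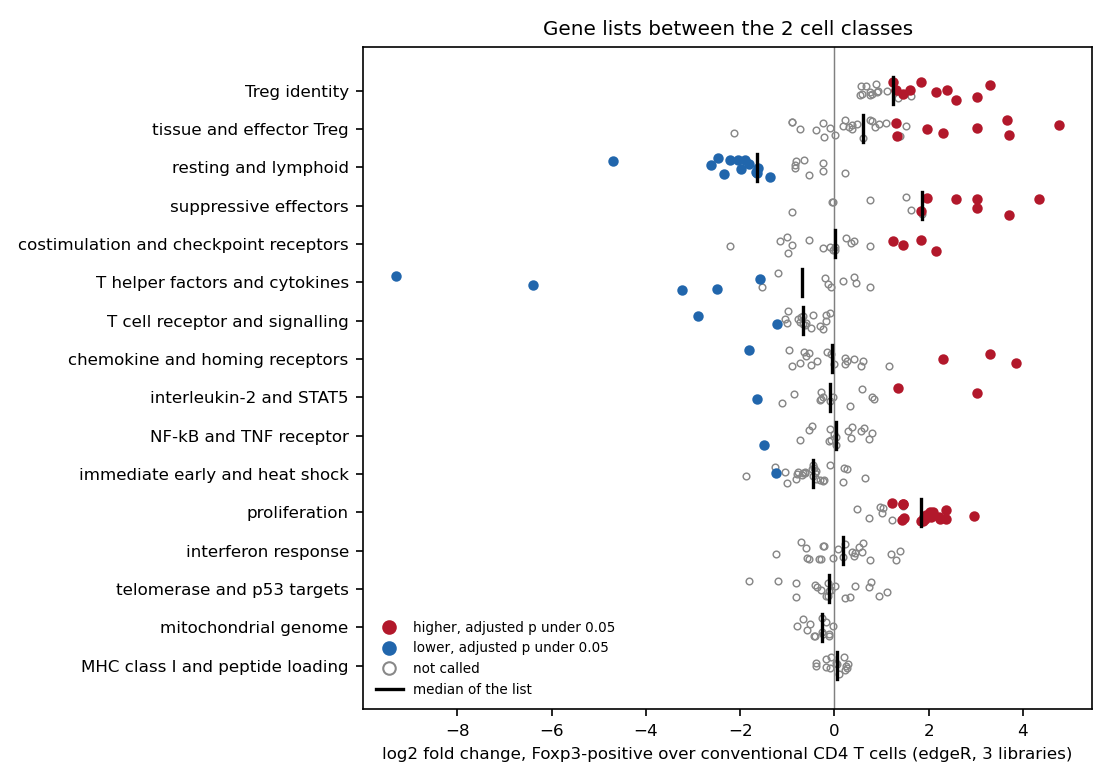
Log2 fold change of Foxp3-positive over conventional CD4 T cells for the tested members of 16 gene lists (edgeR, 3 libraries), with 1 point per gene and a bar at each list's median. Red and blue points passed the adjusted p of 0.05 and lie mostly in the identity, effector, suppressive, proliferation and resting lists. Fitted values of genes with 0 UMIs in 1 class, such as Il22 and Il21 at the far left, depend on the prior count and are no measured folds.

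Genes of the tissue effector state were higher in part. Of 31 members tested, 8 were higher, 0 were lower, and the median was 0.61. They were the interleukin-33 receptor Il1rl1, Klrg1, Areg, the cytokine gene Il10, the chemokine receptor Ccr2, the secreted fibrinogen-like protein Fgl2, and S100a6 and Lgals1, a calcium-binding protein and a galectin that mark activated T cells. Il1rl1 was at 885, 52.0 and 57.4 CPM in the Foxp3-positive cells of the Pdgfra-Cre, Pdgfrb-Cre and wild-type libraries, against 52.97, 3.36 and 2.38 CPM in conventional cells (log2 fold change 3.67, SE 0.49, adjusted p = 4.3e-11 in edgeR). Klrg1 was at 512, 22.95 and 70.1 CPM in Foxp3-positive cells, against 0, 0 and 4.76 CPM in conventional cells (4.77, SE 0.66, adjusted p = 3.0e-10). Areg, a ligand of the epidermal growth factor receptor known for tissue repair, was at 3864, 113 and 328 CPM in Foxp3-positive cells, against 22.7, 88.6 and 15.5 CPM in conventional cells (3.02, SE 0.39, adjusted p = 9.9e-12). The Pdgfra-Cre value lay far above the other two for these 3 genes, and there 1 cell held 81 of the 83 Areg UMIs and 18 of the 19 Il1rl1 UMIs. Without that library Areg did not pass the test (1.78, adjusted p = 0.16), and the Il1rl1 call held. Without the wild-type library 2 of 28 members tested passed, and the calls of Areg and Ccr2 did not hold.

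Pparg, the transcription factor known for regulatory T cells of visceral fat in mice, was at 1, 0 and 2 UMIs in Foxp3-positive cells and was too low to be tested. Gata3, at 745, 79.6 and 172 CPM in Foxp3-positive cells against 68.1, 64.5 and 101 CPM in conventional cells, did not pass the test (0.75, adjusted p = 0.29 in edgeR). Batf, Maf and Rora, other transcription factors of the list, had log2 fold changes of 0.22, 0.18 and 0.49 and did not pass either. Il1rl1, Gata3, Areg, Il13, Il5 and Kit also mark group 2 innate lymphoid cells. Of these, Il1rl1 and Areg were higher in Foxp3-positive cells, as given above. Il13 and Il5 were at 0 UMIs in the Foxp3-positive cells of each library, and Kit was at 0 in the Pdgfra-Cre and wild-type sets. Since Il13 and Il5 were at 0 in the conventional cells of each library too, their absence does not set the Foxp3-positive cells apart.

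Suppressive effector genes were higher for 7 of 14 members tested and lower for 0, with a median of 1.85. Several of them stand in the lists above as well. Il10 was at 838, 26.0 and 76.5 CPM in Foxp3-positive cells of the Pdgfra-Cre, Pdgfrb-Cre and wild-type libraries, against 7.57, 4.03 and 4.76 CPM in conventional cells (log2 fold change 3.70, SE 0.53, adjusted p = 1.4e-09 in edgeR), from 2 of 3, 6 of 79 and 8 of 54 cells. Gzmb, a granule protease, was at 0, 104 and 195 CPM in Foxp3-positive cells, against 0, 4.70 and 7.14 CPM in conventional cells (4.35, SE 0.49, adjusted p = 1.3e-15). It was carried by 6 of 79 and 11 of 54 Foxp3-positive cells, with 31 of the 68 Pdgfrb-Cre UMIs in 1 cell. Tgfb1, at 233, 153 and 143 CPM in Foxp3-positive cells against 166, 177 and 89.2 CPM in conventional cells, did not pass the test (-0.04, adjusted p = 0.98). The integrin chain Itgb8, which activates TGF-beta, had a log2 fold change of 1.85 and did not pass (adjusted p = 0.11). With the wild-type library left out, 3 of 10 members tested were higher.

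Genes of the resting and lymphoid state were lower in Foxp3-positive cells. Of 21 members tested, 13 were lower and 0 higher, with a median of -1.64. Lef1, a transcription factor of naive T cells, was at 0, 70.4 and 60.6 CPM in Foxp3-positive cells of the Pdgfra-Cre, Pdgfrb-Cre and wild-type libraries, against 144, 231 and 282 CPM in conventional cells (log2 fold change -2.21, SE 0.37, adjusted p = 4.5e-07 in edgeR). Its partner Tcf7 was at 0, 62.7 and 66.9 CPM in Foxp3-positive cells, against 106, 211 and 234 CPM in conventional cells (-2.04). S1pr1, the receptor that lets T cells leave tissues and lymph nodes, was at 0, 110 and 28.7 CPM in Foxp3-positive cells, against 37.8, 213 and 198 CPM in conventional cells (-1.81). All 3 genes were lower in Foxp3-positive cells of the Pdgfrb-Cre and wild-type libraries, while the 0 UMIs in the 3 Pdgfra-Cre cells are too few to show a difference. Satb1 (-1.90), Bach2 (-1.63), Klf2 (-1.67) and Bcl2 (-1.64), which act in quiescence and survival, were lower too, as were Klf3, Dapl1, Igfbp4, Actn1, Txk and Evl. The lymph node homing receptor Ccr7 did not pass the test (-0.53, adjusted p = 0.70), and its values turned with the library, as given further on. Without the wild-type library 0 of the 21 genes passed, with a median of -0.99, and without the barcodes that carried Mki67 or Top2a 7 were lower.

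Genes of T helper function were lower for 5 of 14 members tested and higher for 0, with a median of -0.69. Ifng was at 46.6, 1.53 and 31.9 CPM in Foxp3-positive cells of the Pdgfra-Cre, Pdgfrb-Cre and wild-type libraries, against 378, 41.0 and 60.7 CPM in conventional cells (log2 fold change -2.49, SE 0.47, adjusted p = 2.3e-05 in edgeR). Cd40lg, the CD40 ligand that helps B cells, was at 326, 12.2 and 57.4 CPM in Foxp3-positive cells, against 144, 73.9 and 138 CPM in conventional cells (-1.58), so the Pdgfra-Cre library went the other way. Il17a was seen in the Pdgfrb-Cre library alone, with 53.6 CPM from 1 of 79 Foxp3-positive cells, against 475 CPM from 34 of 235 conventional cells. Il22 and Il21 were at 0 UMIs in the Foxp3-positive cells of all libraries. In conventional cells, Il22 had 211 CPM from 27 cells of the Pdgfrb-Cre library, and Il21 had 21.5 CPM in the Pdgfrb-Cre and 11.9 CPM in the wild-type library. These calls leaned on the Pdgfrb-Cre library: without it 0 of 7 members tested passed and their median was 0.65, and with DESeq2 0 of 14 passed.

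Proliferation genes were higher for 18 of 25 members tested and lower for 0, with a median of 1.83. Top2a, a topoisomerase of dividing cells, was at 838, 248 and 172 CPM in Foxp3-positive cells of the Pdgfra-Cre, Pdgfrb-Cre and wild-type libraries, against 7.57, 104 and 26.2 CPM in conventional cells (log2 fold change 2.09, SE 0.33, adjusted p = 1.2e-07 in edgeR). Mki67 was at 186, 122 and 118 CPM in Foxp3-positive cells, against 7.57, 69.8 and 2.38 CPM in conventional cells (1.92, SE 0.39, adjusted p = 1.2e-04). Both were higher in Foxp3-positive cells of every library, and the mitotic kinases Cdk1 (2.37) and Aurkb (2.96) were higher as well, though neither passed without the wild-type library. Aurkb did not pass without the Pdgfra-Cre library either. A Mki67 or Top2a UMI was seen in 1 of 3, 17 of 79 and 20 of 54 Foxp3-positive cells. Those cells were deep in the Pdgfrb-Cre set, with a median of 10401 UMIs against 4918 for the whole set, and less so in the wild-type set, with 4684 against 4316. With such barcodes left out of both classes, 0 of 9 members still tested passed and their median was -0.30. In that fit 11 of 21 identity genes were higher. Mki67 and Top2a are members of the proliferation list, so its drop follows at least in part from the choice of barcodes. With DESeq2 4 of 25 proliferation genes were higher, and with a Cd4 UMI asked of the Foxp3-positive cells 4 of 23. Without the wild-type library 1 of 25 proliferation genes passed, without the Pdgfrb-Cre library 7 of 13 and without the Pdgfra-Cre library 7 of 25.

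Other lists held few calls. Of the costimulation and checkpoint receptors 4 of 19 were higher (Ctla4, Tnfrsf4, Tnfrsf9 and Tnfrsf18) and 0 lower. Of the homing receptors 3 of 22 were higher (Ccr2, Ccr10 and Itgae) and 1 lower (S1pr1). Ccr10, a receptor for skin and mucosal chemokines, was at 0, 7.65 and 82.9 CPM in Foxp3-positive cells, against 0, 0.671 and 3.57 CPM in conventional cells (log2 fold change 3.86, adjusted p = 1.3e-04 in edgeR), mostly from 10 wild-type cells. With the wild-type library left out, 0 of 20 homing receptors passed in either direction. Of 15 interleukin-2 and STAT5 genes, Il2ra and the feedback inhibitor Cish (1.35) were higher and Bcl2 was lower. Of 19 genes of T cell receptor signalling, 2 were lower, among them the signalling adaptor Themis (-2.90), and 0 higher. Tnfsf8 (-1.49) was the 1 gene of 17 called in the NF-kB and TNF receptor list, and Egr1 (-1.24) the 1 of 27 among immediate early and heat shock genes. In the interferon (23 tested), telomerase and p53 (20) and MHC class I (14) lists, 0 genes passed in either direction. A gene that did not pass is not shown to be unchanged. The 13 genes of the mitochondrial genome, whose summed share helped choose the barcodes of both classes, had a median of -0.27, given as a description.

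Among the 15 genes with the largest log2 fold change that were higher in every library, those outside the lists were the acyltransferase Lclat1 (3.04), the DNA repair gene Rad51ap1 (2.81), the chromatin assembly gene Chaf1a (2.51), the sterol-related gene Tmem97 (2.51), Cmtm7 (2.46) and the condensin gene Ncapg2 (2.43). Cmtm7 rested on the most cells, with 93.1, 176 and 354 CPM in the Foxp3-positive cells of the Pdgfra-Cre, Pdgfrb-Cre and wild-type libraries, against 37.8, 48.3 and 20.2 CPM in conventional cells (SE 0.36, adjusted p = 2.8e-09 in edgeR). The others had at most 17 UMIs in a library, except Ncapg2 with 25. In the Pdgfra-Cre Foxp3-positive set Chaf1a and Tmem97 had 1 UMI each. The 2 Rad51ap1 and 5 Ncapg2 UMIs there came from 1 cell for each gene. Without the Pdgfra-Cre library the calls of Chaf1a, Tmem97 and Ncapg2 did not hold. At the other end, Vipr1, a receptor for vasoactive intestinal peptide, had 0 UMIs in all Foxp3-positive cells, against 1, 15 and 25 UMIs in conventional cells. Dapl1 was at 0, 3.06 and 3.19 CPM in Foxp3-positive cells, against 22.7, 28.2 and 173 CPM in conventional cells (-4.70, SE 0.66, adjusted p = 8.4e-10). Fasl, a ligand that triggers cell death, was at 0, 1.53 and 0 CPM in Foxp3-positive cells, against 174, 28.2 and 5.95 CPM in conventional cells (-4.56). Without the wild-type library the calls of Cmtm7, Dapl1 and Fasl did not hold. Pdlim4, Sox4, Pde3b, Klrk1, Basp1, Enpp2, Hs3st3b1, 1500011B03Rik and Zfp773 were lower too, with at most 5 UMIs in any Foxp3-positive set and 0 in the Pdgfra-Cre set. Apoe, Cavin2 and Gpx3, also lower, are best known from myeloid, stromal or endothelial cells: the 23 Pdgfra-Cre conventional UMIs of Gpx3 came from 1 cell, as did the 15 of Cavin2.

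Markers of other cell types moved with the classes in places. With barcodes that carried some of these markers left out, 74 genes were higher and 56 lower. That fit kept 46 Pdgfrb-Cre and 37 wild-type Foxp3-positive cells. In it 12 of 20 identity and 5 of 15 proliferation genes tested were higher, against 10 of 23 and 18 of 25 in the main fit. The part of these markers in the results beyond that was not tested. Of 8 stromal markers, whose summed level was 140, 404 and 131 CPM in Foxp3-positive cells of the Pdgfra-Cre, Pdgfrb-Cre and wild-type libraries and 7128, 461 and 79.7 CPM in conventional cells, Dcn and Gsn were lower in Foxp3-positive cells, as was Fabp4 of 6 endothelial markers. Pdgfra and Mgp were at 0 in the Foxp3-positive cells of each library. Of 9 macrophage markers, which summed to 0, 50.5 and 217 CPM in Foxp3-positive cells and 45.4, 10.1 and 225 CPM in conventional cells, Tyrobp was higher, from 1 Pdgfrb-Cre and 3 wild-type Foxp3-positive cells. Csf1r was seen in the Pdgfrb-Cre Foxp3-positive set alone, and C1qc and Adgre1 were at 0 in each. Of 7 B cell markers, which summed to 46.6, 252 and 641 CPM in Foxp3-positive and 22.7, 167 and 587 CPM in conventional cells, 0 of 3 tested passed in either direction. Natural killer cell markers amounted to at most 1 UMI in a Foxp3-positive set, and to 37.8, 0.671 and 3.57 CPM in conventional cells. CD8 T cell markers summed to 0, 1.53 and 12.8 CPM in Foxp3-positive and 189, 14.1 and 0 CPM in conventional cells. The 189 CPM came from 7 of the 26 Pdgfra-Cre conventional cells, a class chosen without Cd8a and Cd8b1. The part of such cells in the lower Fasl, Klrk1 and Ifng was not tested.

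As a share of all CD3-positive barcodes, Foxp3-positive cells made up 0.980% in the Pdgfra-Cre library (3 of 306, exact Clopper-Pearson 95% interval 0.203 to 2.84), 4.32% in the Pdgfrb-Cre library (79 of 1828, 3.44 to 5.36) and 6.84% in the wild-type library (54 of 790, 5.18 to 8.83). These intervals cover counting error only, and with 1 library per genotype no test was made. Thinned to 2000 UMIs per cell, the shares were 0.494%, 2.43% and 4.51%. The denominators differed in makeup: CD8 T cells were 59.8%, 46.6% and 22.3% of CD3-positive barcodes. Of the Foxp3-positive and conventional CD4 T cells together, Foxp3-positive cells were 10.3% (2.19 to 27.4), 25.2% (20.5 to 30.3) and 28.4% (22.1 to 35.4). The Pdgfrb-Cre and wild-type intervals overlapped for both denominators. A Cd4 UMI was asked of the conventional cells alone, which raises this last share. With Cd4 asked of both classes, the Pdgfrb-Cre library had 39 Foxp3-positive and 235 conventional cells, and the wild-type library 24 and 136. With Cd4 asked of neither class, these counts were 79 and 703, and 54 and 494. Dead-cell and red-cell removal before loading could also shift such shares.

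The cells differed in which state genes were seen in them. Over the 136 cells, 66 carried a UMI of Ccr7 and 60 carried one of Klrg1, Il1rl1 or Areg, with 28 carrying both and 38 neither. Detection went with depth: the median was 6658 UMIs in cells with both and 3770 in cells with neither. Whether these groups are separate states was not tested. A Ccr7 UMI was seen in 1 of 3 cells in the Pdgfra-Cre set, 53 of 79 in the Pdgfrb-Cre set (67.1%, 55.6 to 77.2) and 12 of 54 in the wild-type set (22.2%, 12.04 to 35.6). A Klrg1, Il1rl1 or Areg UMI was seen in 3 of 3, 32 of 79 (40.5%, 29.6 to 52.2) and 25 of 54 cells (46.3%, 32.6 to 60.4). The summed level of the resting and lymphoid list per cell had a lowest, median and highest value of 235, 357 and 1109 CPM in the Pdgfra-Cre set, 0, 3022 and 9787 CPM in the Pdgfrb-Cre set, and 0, 1403 and 6946 CPM in the wild-type set. The tissue and effector list summed to 8461, 15330 and 30860 CPM in the Pdgfra-Cre set, 0, 5329 and 31380 CPM in the Pdgfrb-Cre set, and 1034, 8994 and 31320 CPM in the wild-type set. The ranges of the Pdgfrb-Cre and wild-type cells overlapped, with the higher median in the Pdgfrb-Cre set for the resting list and in the wild-type set for the effector list.

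**Figure D3:**
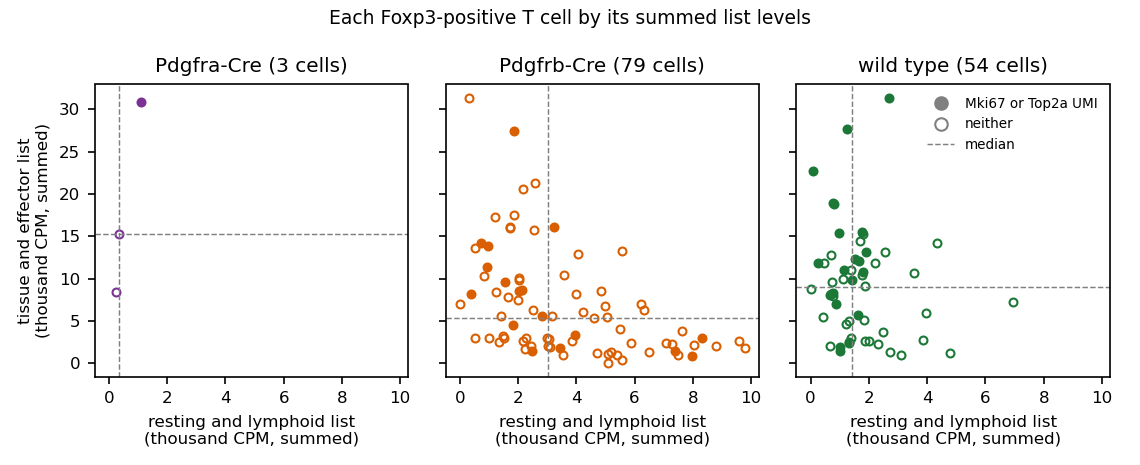
Each Foxp3-positive cell by its summed level of the resting and lymphoid list (horizontal) and of the tissue and effector list (vertical), in units of 1000 CPM, with 1 panel per library and dashed lines at the library's medians. Filled points carried a Mki67 or Top2a UMI. The horizontal medians are 357, 3022 and 1403 CPM and the vertical ones 15330, 5329 and 8994 CPM in the Pdgfra-Cre, Pdgfrb-Cre and wild-type panels.

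All 3 Pdgfra-Cre cells carried Klrg1. They held 2805, 14422 and 4255 UMIs, with 3, 7 and 1 UMIs of Klrg1, 1, 18 and 0 of Il1rl1, and 1, 17 and 0 of Il10. The chemokine gene Cxcl2, a neutrophil attractant, was at 10800 CPM in them, with 1, 219 and 12 UMIs, against 228 CPM in the Pdgfrb-Cre and 3.19 CPM in the wild-type set. With 3 cells, of which 1 held most UMIs, no further comparison with the wild-type library was made.

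Between the Pdgfrb-Cre and wild-type libraries, Foxp3-positive cells were compared by CPM ratios with exact conditional binomial 95% intervals, which treat UMIs as separate draws and leave out spread between cells and mice. Genes with at least 50 CPM and 20 UMIs in the higher library were ranked. Of 2736 such genes, 9.50% were at least 2-fold higher in the Pdgfrb-Cre set and 8.37% at least 2-fold lower. In conventional cells, with 2666 ranked genes, the shares were 16.8% and 5.74%. No test was possible, and every value below is of 2 libraries.

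Several homing and quiescence genes had a higher CPM in the Pdgfrb-Cre than in the wild-type Foxp3-positive cells. Of 14 ranked members of the resting and lymphoid list, 5 were at least 2-fold higher and 0 at least 2-fold lower, and the median log2 ratio over 20 members was 0.42, against -0.24 in conventional cells and -0.05 over all genes. Ccr7, the receptor that guides T cells to lymph nodes, was at 764 CPM in the Pdgfrb-Cre set, against 98.8 CPM in the wild-type set (7.73-fold, 5.37 to 11.5), and 439 against 297 CPM in conventional cells. After thinning to 2000 UMIs it was seen in 56.7% of the Pdgfrb-Cre cells, against 11.4% of the wild-type cells. In conventional cells the thinned shares were 41.4% and 36.4%, and in B cells, which use Ccr7 too, 58.6% and 23.4%. Satb1 was at 431 against 73.3 CPM (5.89-fold, 3.84 to 9.44) and S1pr1 at 110 against 28.7 CPM (3.84-fold, 1.91 to 8.74). Igfbp4 was at 76.5 CPM from 8 cells against 6.38 CPM from 2 cells (interval of the fold 3.15 to 102). Other members did not share this. Lef1 (ratio 1.16, 0.668 to 2.10), Tcf7 (0.937, 0.541 to 1.67) and Klf2 (1.18, 0.944 to 1.48) had intervals that covered 1. Il7r was lower (0.595, 0.430 to 0.825). Of the 20 members, 14 had a log2 ratio above 0 and 6 below, and the interval of the list median, over members, was -0.04 to 1.58.

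Effector genes ran mostly the other way. The tissue and effector list had a median log2 ratio of -0.56 over 32 members in Foxp3-positive cells, against 1.28 in conventional cells. Of 24 ranked members, 9 were at least 2-fold lower and 3 at least 2-fold higher. Maf was at 176 CPM in the Pdgfrb-Cre set, against 628 CPM in the wild-type set, a ratio of 0.280 (0.221 to 0.354). Areg had a ratio of 0.345 (0.252 to 0.469), Klrg1 of 0.327 (0.158 to 0.660), Il10 of 0.340 (0.171 to 0.660), Gata3 of 0.462 (0.310 to 0.689) and S100a6 of 0.485 (0.427 to 0.551). Irf4, Prdm1 and Lgals3 were also at least 2-fold lower. The Areg ratio leaned on few wild-type cells: 1 cell held 42 of the 103 wild-type UMIs and another held 20. Areg was seen in 30 of 79 Pdgfrb-Cre and 18 of 54 wild-type cells. After thinning to 2000 UMIs these shares were 23.17% and 23.9%, so the share of cells with Areg was similar. For Il10, 1 wild-type cell held 11 of the 24 UMIs. Il10 was seen in 6 of 79 and 8 of 54 cells, and Klrg1 in 5 of 79 and 10 of 54. Il1rl1 was at 52.0 against 57.4 CPM, a ratio of 0.907 (0.498 to 1.71), which counting error covers. The 3 higher genes were Dgat1, Nfil3 and Rora. With barcodes that carried Mki67 or Top2a left out, the median of the list was -0.066.

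**Figure D4:**
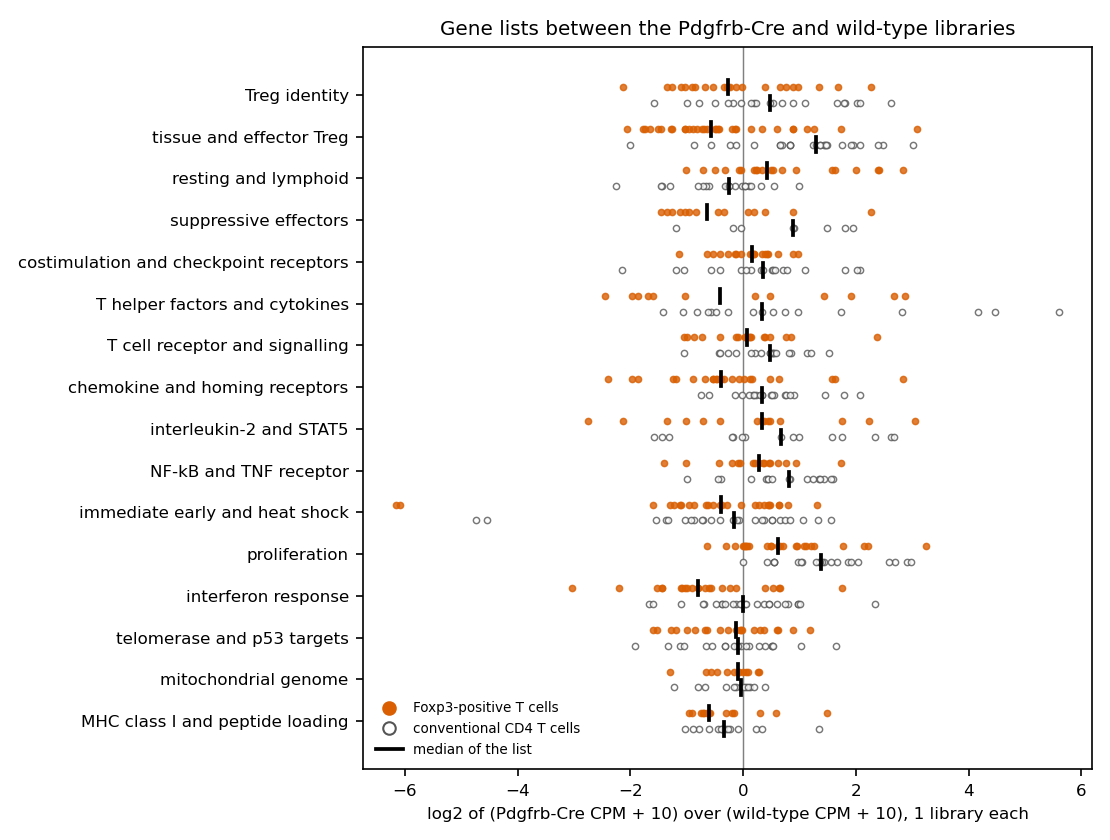
Log2 ratio of the Pdgfrb-Cre over the wild-type library, with 10 CPM added on both sides, for members of 16 gene lists at 10 CPM or more, in Foxp3-positive cells (orange) and conventional CD4 T cells (open). Bars mark list medians, with 1 library on each side. The tissue and effector list has medians of -0.56 and 1.28 in the 2 classes, and the resting and lymphoid list of 0.42 and -0.24.

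Most interferon-response genes had lower levels in the Pdgfrb-Cre than in the wild-type Foxp3-positive cells. Of 16 ranked members, 9 were at least 2-fold lower and 1 (Socs1) at least 2-fold higher, and the median log2 ratio over 23 members was -0.80, against -5.8e-04 in conventional cells. Ifi27l2a was at 1070 CPM in the Pdgfrb-Cre set, against 2898 CPM in the wild-type set, a ratio of 0.369 (0.334 to 0.408). The guanylate-binding protein gene Gbp7 was at 22.95 CPM from 13 of 79 cells, against 261 CPM from 33 of 54 cells (0.0878, 0.0470 to 0.153), and at 14.8 against 69.0 CPM in conventional cells. Its relative Gbp9 was at 9.18 against 134 CPM. Bst2, Zbp1, Ifi209, Trim30a, Gbp4 and Iigp1 were also at least 2-fold lower. With at least 2 Foxp3 UMIs asked of each cell, the median was -0.13. Class I genes had a median of -0.60 over 14 members in Foxp3-positive cells, against -0.33 in conventional cells. In Foxp3-positive cells H2-K1 was at 1640 against 2646 CPM and B2m at 1835 against 2863 CPM.

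Among the named identity genes, Ikzf2 was at 624 CPM in the Pdgfrb-Cre set, against 1358 CPM in the wild-type set (ratio 0.460, 0.400 to 0.528), and Il2ra at 161 against 427 CPM (0.376, 0.288 to 0.489), of which 52 wild-type UMIs were in 1 cell. Ctla4 was at 1198 against 909 CPM (1.32, 1.15 to 1.51), Tnfrsf4 at 938 against 504 CPM (1.86, 1.56 to 2.23) and Foxp3, which chose the cells, at 233 against 287 CPM. In conventional cells the ratios were larger for Ctla4 (3.69) and Tnfrsf4 (4.42). Those of Ikzf2 (1.15) and Il2ra (0.846) had intervals that covered 1 there. In Foxp3-positive cells the identity list had members on both sides, with a median of -0.27, against 0.47 in conventional cells. The proliferation list had a median of 0.61, but -0.42 as a mean over cells with equal weight. Its median in conventional cells was 1.38. A smaller share of Pdgfrb-Cre than of wild-type Foxp3-positive cells carried Mki67 or Top2a (21.5%, 13.1 to 32.2, against 37.0%, 24.3 to 51.3).

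The largest ratios were mostly shared with conventional cells of the same libraries. Rpl29, a ribosomal protein gene, was at 1770 CPM in the Pdgfrb-Cre Foxp3-positive set, against 70.1 CPM in the wild-type set (25.2-fold, 16.6 to 40.4), and 18.3-fold higher in conventional cells. Ribosomal protein genes have many near-identical pseudogene copies, so the split of reads is uncertain for Rpl29. Dgat1, which makes triglycerides, was at 103 CPM from 37 cells against 3.19 CPM from 1 cell (32.2-fold, 5.58 to 1289), and 37.8-fold higher in conventional cells. Socs3, a feedback inhibitor of cytokine signalling, was at 335 against 31.9 CPM (10.5-fold, 5.61 to 22.2), and 7.29-fold higher in conventional cells. Ramp3 was at 176 against 6.38 CPM (27.6-fold, 7.47 to 231), and Gm12840 at 74.98 CPM against 0 UMIs, at least 7.84-fold higher with the wild-type level set to 3 counts. In the other direction, Gdpd3 had 0 UMIs in the Pdgfrb-Cre set, against 466 CPM from 39 of 54 wild-type cells, at least 101-fold lower with 3 counts as the floor, and 1 UMI against 275 UMIs in conventional cells. The heat shock gene Hspa1a was at 12.2 CPM, against 1569 CPM in the wild-type set, and Hspa1b at 1.53 against 772 CPM. These 2 are near-identical copies, so the split of reads between them is uncertain. Gm8797 was at 16.8 against 265 CPM and 1600014C10Rik at 4.59 against 124 CPM.

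Several ranked genes rested on few cells. S100a9 (164 UMIs) and S100a8 (130 UMIs), neutrophil genes, came from 1 Pdgfrb-Cre cell, which carried none of Ikzf2, Ctla4 and Il2ra. That cell also held 56 of the 149 Pdgfrb-Cre UMIs of Cxcl2. Igfbp5 came from 5 Pdgfrb-Cre cells, Cxcl2 from 10 and the mitotic gene Ube2c from 9. On the wild-type side, the 27 Siglech UMIs came from 1 cell, the 55 Ly6d UMIs from 2 and the 47 H2-Ab1 UMIs from 4. Siglech, Ly6d and H2-Ab1 are genes of other immune cells, and their part was not tested.

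For 11 genes of the lists, the difference between the 2 classes ran one way in the Pdgfrb-Cre library and the other way in the wild-type library, with both counting intervals leaving out 1. Maf was at 176 CPM in Foxp3-positive and 245 CPM in conventional cells of the Pdgfrb-Cre library, and at 628 and 151 CPM in the wild-type library. Rgs1, a brake on chemokine signals, was at 796 and 906 CPM in the Pdgfrb-Cre library, and at 1505 and 253 CPM in the wild-type library. Irf4, needed for effector regulatory T cells, was at 21.4 and 47.7 CPM in the Pdgfrb-Cre library, and at 89.3 and 14.3 CPM in the wild-type library. Ccr7 ran opposite to these, higher in Foxp3-positive than in conventional cells of the Pdgfrb-Cre library and lower in the wild-type library. These differences between libraries were not tested, since each library is 1 sample. The number of list genes with enough UMIs for this comparison, and the share over all genes, are not given. The 11 genes can therefore not be read as many or few.

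**Figure D5:**
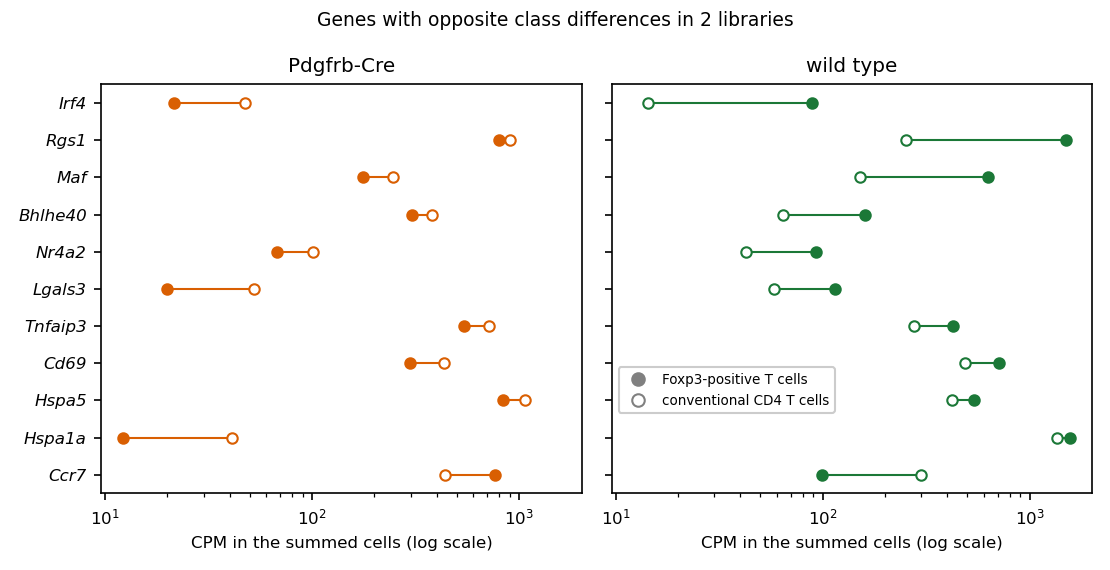
CPM, on a log axis, of 11 genes in Foxp3-positive cells (filled) and conventional CD4 T cells (open) of the Pdgfrb-Cre and wild-type libraries, with a line joining the 2 classes. For 10 genes, such as Irf4 and Rgs1, the Foxp3-positive cells lie left in the Pdgfrb-Cre and right in the wild-type library, and for Ccr7 the reverse.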

How the data were processed

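Single-cell libraries were made with 10x 3' v3 chemistry after dead-cell and red-cell removal, per the labels' protocols, 1 library for each of 3 genotypes. The authors deposited UMI counts per gene and barcode, made with Cell Ranger 3.1.0 and STAR 2.6 on mm10, per the submitters' processing notes. The gene annotation behind these counts is not stated, and 99.86% of 31053 features matched GENCODE M21. The libraries held 14438471, 30826733 and 13352288 UMIs (Pdgfra-Cre, Pdgfrb-Cre, wild type).

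Barcodes were chosen by the stated rule, and counts were summed per library and class. Genes with at least 30 UMIs over the 6 sums were tested with edgeR 4.0.16 (R 4.3.3), TMM scaling and the library as a block. DESeq2 1.42.0 was an alternative. On simulated counts the test missed most changed genes, so a gene that did not pass may still differ. Genotypes were compared without a test, with 10 CPM added to both sides of a log2 ratio. The planned ratio of Pdgfra-Cre over wild type was not computed, since 3 cells stood behind it. Intervals are at 95% and cover counting error only, except that of a list median, which covers the spread of its members. Clopper-Pearson, Poisson and conditional binomial intervals came from scipy 1.17.1, and Scrublet scores from scanpy 1.11.5. Levels are not divided by gene length, so they compare groups within a gene.

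Genes were named as the 15 with the largest and the 15 with the smallest log2 fold change between classes (adjusted p under 0.05, same direction in all 3 libraries, 0 UMIs counting as lower) and the 10 at either end between libraries. Any member of the 16 gene lists could be named too, and 11 lists held markers of other cell types. The members and lists were chosen with earlier results of these data known. Xist, Y-linked and immunoglobulin genes were counted apart, and some list members are counted but not reported here by name. Whether each library pooled mice is not given, so p-values refer to these 3 libraries and not to mice. The edgeR fit shares information on spread across genes, so a small p does not mean that a gene's libraries were alike. For Areg, with adjusted p = 9.9e-12 in edgeR, the 2 classes were at 3864 and 22.7 CPM in the Pdgfra-Cre library. In the Pdgfrb-Cre library they were at 113 and 88.6 CPM.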

Additional observations from a re-analysis of the deposited data

Results flagged for a closer look

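A gene is given here where the log2 ratio of Foxp3-positive over conventional CD4 T cells had opposite signs in the Pdgfrb-Cre and wild-type libraries, with both counting intervals leaving out a ratio of 1. The difference between the libraries was not tested, since each is 1 sample. How many genes could have met this rule is not given. For 10 genes Foxp3-positive cells were lower than conventional cells in the Pdgfrb-Cre library and higher in the wild-type library. The transcription factors among them were Irf4, with -1.15 in the Pdgfrb-Cre and 2.64 in the wild-type library, Maf, with -0.48 and 2.06, Bhlhe40, with -0.31 and 1.31, and Nr4a2, with -0.58 and 1.11, in the same order of libraries. Rgs1 had -0.19 in the Pdgfrb-Cre and 2.57 in the wild-type library. Lgals3 had -1.40 and 0.98, Cd69, a retention receptor, had -0.55 and 0.56, and Tnfaip3, an NF-kB inhibitor, had -0.40 and 0.62. The chaperone genes Hspa1a and Hspa5 had -1.74 and 0.21, and -0.35 and 0.36.

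For 1 gene the signs were the other way round. The lymph node homing receptor Ccr7 had 0.80 in the Pdgfrb-Cre and -1.59 in the wild-type library. Counts of cells per group ranged from 54 to 235 for these values.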

How the results depend on the processing

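Genes higher and lower in Foxp3-positive than in conventional cells numbered 110 and 109. Leaving out 1 library at a time gave 9 to 71 higher and 3 to 59 lower genes, the lowest without the wild-type library. DESeq2 gave 23 and 12, and the fit without a library term 2 and 0, with 393 genes at an unadjusted p under 0.05. The cause was not tested. The libraries were already the block, so the classes were paired within them in the reported values. Asking a Cd4 UMI of the Foxp3-positive cells gave 34 and 40, no Cd4 requirement for conventional cells 234 and 734, and leaving out barcodes with Mki67 or Top2a 52 and 35. The lower genes were 50 with edgeR's filterByExpr and 56 without barcodes that carried markers of other cell types. None of the 30 named class genes changed sign.

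The share of CD3-positive barcodes in the Pdgfrb-Cre library was 2.19% with at least 2 Foxp3 UMIs, 2.13% with a Cd4 UMI asked, 3.42% without barcodes carrying other markers and 2.43% thinned (added after the data were seen). In the wild-type library it was 2.41% with at least 2 Foxp3 UMIs, 3.04% with a Cd4 UMI asked, 4.93% without cycling barcodes and 4.51% thinned.

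Medians of lists between libraries moved as follows. The effector list had -0.066 without cycling barcodes. The T cell receptor list had 0.43 and the interferon list -0.13 with at least 2 Foxp3 UMIs. The homing list had -0.68 and the NF-kB list -0.17 with a Cd4 UMI asked. The NF-kB list had 0.82 without barcodes of other markers and 0.54 as a mean over cells. The proliferation list had 1.58 with a Cd4 UMI asked, and changed sign to -0.78 without barcodes of other markers, -0.35 without cycling barcodes and -0.42 as a mean over cells. Of single genes, Ube2c changed sign to -0.81 without cycling barcodes and H2-Ab1 to 1.30 with at least 2 Foxp3 UMIs. With 79 and 54 cells, genes under 1 UMI in many cells are limited by depth, and the 3 Pdgfra-Cre cells allowed no comparison with the wild-type library.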
